A study of Mus musculus with 6 samples.

Results

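The genes of heme synthesis and iron handling were followed in whole mouse embryos at embryonic day 9.5 (E9.5) that lack the reduced folate carrier RFC1, the membrane protein encoded by Slc19a1 that brings reduced folates into cells. A list of 34 genes was drawn up by function, and a gene counted as measured where the array held at least 1 probe set annotated to its symbol alone. This left 32 of the 34 genes, with 69 probe sets, among 18194 genes measured in the same way. Ahsp, the chaperone of free alpha globin, had no probe set of its symbol, and the 3 probe sets that name the ferritin light chain gene Ftl1 name a pseudogene with it, so neither has a value here.

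Each of 6 arrays carried the RNA of a single embryo. There were 3 RFC1-/- embryos, labelled with craniorachischisis, an open neural tube, and lack of chorioallantoic fusion, and 3 RFC1+/+ littermates labelled as normal for both, with 1 embryo of each genotype from each of 3 litters. All came from RFC1+/- dams on the inbred SWV background that had been injected subcutaneously with folic acid at 25 mg/kg every day from E0.5, so no embryo without supplementation stands beside them. In the knockout the allele is inactive in every tissue, and the affected embryos differ from their littermates in form as well as in genotype. On the log2 scale Slc19a1 itself read 9.11, 9.10 and 8.89 in RFC1+/+ and 9.97, 10.10 and 9.84 in RFC1-/- embryos, higher by 0.93 (adjusted p = 0.0070 from limma), and whether its probe set lies within the inactivated part was not tested, so this does not check the genotypes.

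Heme is made from glycine and succinyl-CoA in a chain of steps that begins and ends in the mitochondrion. The first step has an erythroid enzyme, Alas2, and an enzyme of all cells, Alas1, while the enzymes that follow are shared, and red cell precursors supply the chain with iron through transferrin, its receptor Tfrc and the mitochondrial carrier Slc25a37. In an embryo of this age nearly all hemoglobin is made by primitive red cells from the yolk sac, and the visceral endoderm passes nutrients, iron among them, from mother to embryo.

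In RFC1-/- embryos 1 of the 8 heme synthesis enzymes, the erythroid Alas2, was lower, along with 5 genes of iron and heme handling, and 2 genes of iron traffic were higher. Alas2, Slc25a37, Tfrc, the biliverdin reductase Blvrb, the heme exporter Flvcr1 and the plasma ferroxidase Cp fell, by 1.42-fold to 5.07-fold. Without litter 1 the calls of Tfrc, Blvrb, Flvcr1 and Cp were lost, and the second Flvcr1 probe set went the other way. The iron exporter Slc40a1 (ferroportin) rose 2.72-fold and the ferritin receptor Timd2 rose 12.0-fold on its brightest probe set, from values near the bottom of the scale, while its second probe set read 2.08-fold higher and did not pass (adjusted p = 0.128). The other 24 genes did not pass an adjusted p of 0.05 from limma, and these included Alas1 and each of the 6 heme enzymes that all cells share. All levels are log2 values, on which 1 unit is a doubling, and all differences are RFC1-/- minus RFC1+/+ within a litter.

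The start regions of the Alas genes are shown because this isoenzyme pair carries the contrast between the erythroid and the general pathway. The 250 bases before the RefSeq start of Alas2 (GRCm38.p6, chrX:150547167-150547416, plus strand) and of the first listed start of Alas1 (chr9:106247955-106248204, minus strand) are given 5′ to 3′. Capitals mark matches on either strand to the GATA motif AGATAA (or TTATCT), to the CACCC box CCACCC (or GGGTGG) and to the NF-E2 or AP-1 motif TGAGTCA (or TGACTCA).

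Alas2: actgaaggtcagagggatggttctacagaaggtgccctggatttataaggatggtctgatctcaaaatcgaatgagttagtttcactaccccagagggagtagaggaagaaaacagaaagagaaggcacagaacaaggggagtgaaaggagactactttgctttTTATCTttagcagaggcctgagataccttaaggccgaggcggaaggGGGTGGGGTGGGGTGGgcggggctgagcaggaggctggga
Alas1: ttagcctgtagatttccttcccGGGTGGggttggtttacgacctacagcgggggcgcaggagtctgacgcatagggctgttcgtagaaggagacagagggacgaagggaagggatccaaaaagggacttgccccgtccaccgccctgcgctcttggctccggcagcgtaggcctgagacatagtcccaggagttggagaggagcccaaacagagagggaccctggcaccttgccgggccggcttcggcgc

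The Alas2 window held 1 GATA match, 86 bases before the start, and 3 overlapping CACCC matches close to the start. The Alas1 window held 1 CACCC match and no GATA match, and neither window held the third motif. Among 32851 mouse start regions of the same length, 9.99% held the GATA letters, 28.1% the CACCC letters and 4.46% the letters of the third motif. A start region was found in the RefSeq table for 26 of the 34 genes. Among these the GATA letters also stood at 1 start each of Hamp and Steap3, and they stood at no listed start of Tfrc, Blvrb, Flvcr1, Cp or Timd2. Slc25a37 and Slc40a1 were not searched here. These are matches of letters only, and binding was not measured.

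Of the 32 genes, 6 passed the test as lower and 2 as higher, which is 25.0% of them, where 5.32% of all genes passed in either direction. Over all genes 1.65% passed as lower and 3.67% as higher. In 9 of the 32 genes every RFC1-/- embryo read below every RFC1+/+ embryo, which holds for 13.4% of all genes, and in 4 genes every RFC1-/- embryo read above, which holds for 12.8% of all genes. The median difference of the 32 genes was -0.10, beside -0.01 for all genes, and 23 of the 32 lay below 0, as did 9817 of all 18194 genes. P-values here come from differences within 3 litters, with each gene's spread drawn toward that of all genes by limma. The small number of arrays limits the precision.

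**Figure D1:**
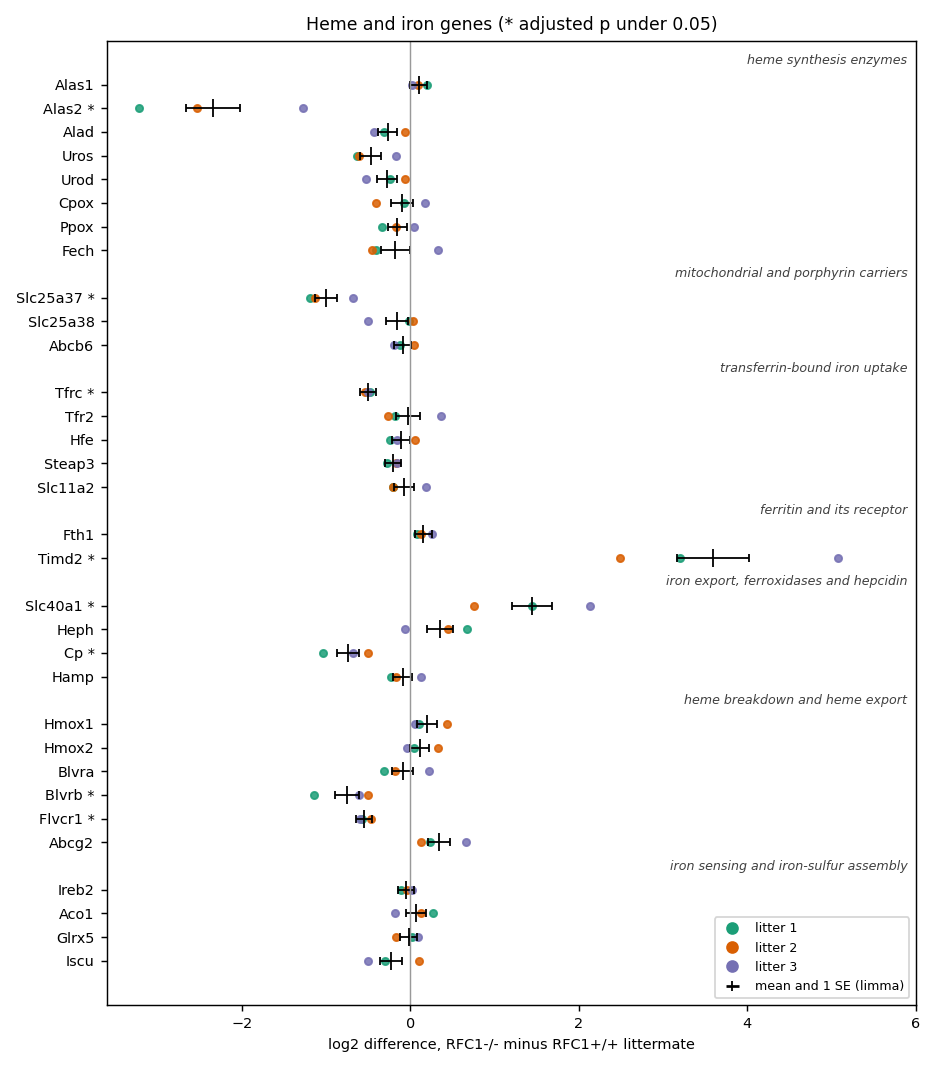
Log2 difference, RFC1-/- minus RFC1+/+, of the 32 measured genes, arranged by role. Points are the 3 litters, and the black mark with its bar is the mean and 1 SE from limma. Timd2 and Slc40a1 lie to the right of 0 and Alas2 farthest to the left, while the shared heme enzymes lie just below 0.

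Among the heme synthesis enzymes Alas2, which catalyses the first step in red cell precursors, was the gene that passed. Its level in litters 1, 2 and 3 was 8.06, 7.62 and 6.97 in the RFC1+/+ embryo and 4.84, 5.09 and 5.69 in the RFC1-/- embryo, the order of litters kept below. The groups did not overlap, but the size of the difference varied, at -3.22, -2.53 and -1.28. The mean difference was -2.34 (SE 0.32, n = 3 litters, adjusted p = 0.0125 from limma), or 5.07-fold lower. Alas2 lies on the X chromosome and the embryos were not all of the same sex by their Xist and Eif2s3y readings, with a pair of the same sex in litter 1 only, where the difference was largest. Alas1, its counterpart in all cells, measured 8.48, 8.63 and 8.63 in RFC1+/+ and 8.68, 8.72 and 8.64 in RFC1-/- embryos. Its difference of 0.10 (95% interval -0.14 to 0.34, adjusted p = 0.705) did not pass.

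The 6 measured enzymes after the first step are shared by all cells. Alad, which forms porphobilinogen, measured 10.74, 10.73 and 10.66 in RFC1+/+ and 10.42, 10.67 and 10.22 in RFC1-/- embryos. Uros, which closes the porphyrin ring, measured 8.51, 8.83 and 8.45 against 7.88, 8.22 and 8.28. In Uros the groups did not overlap, yet the difference of -0.47 (SE 0.13, adjusted p = 0.0923) did not pass. Urod, which removes carboxyl groups from the ring, measured 11.24, 11.04 and 11.28 in RFC1+/+ embryos, from which the RFC1-/- littermates differed by -0.24, -0.07 and -0.53. All RFC1-/- embryos thus lay below all RFC1+/+ embryos in Urod, while the groups overlapped in Alad. Cpox, the next enzyme, measured 6.40, 6.59 and 6.32 against 6.32, 6.18 and 6.49. Ppox, which oxidises the ring in the mitochondrion, measured 6.74, 6.63 and 6.25 against 6.40, 6.46 and 6.28. Groups overlapped in both genes. Fech, which inserts the iron, measured 9.47, 9.46 and 9.14 in RFC1+/+ embryos, from which the RFC1-/- littermates differed by -0.41, -0.46 and 0.33, so that it was lower in litters 1 and 2 and higher in litter 3. All 4 Fech probe sets had a mean difference below 0 and none passed. The differences of the 6 enzymes ran from -0.47 in Uros to -0.10 in Cpox, with a median of -0.22, and the medians by litter were -0.32, -0.29 and -0.06. None of the 6 passed, and 2 were lower without adjustment for the number of genes, as were 1464 of all 18194 genes. The random-variance paired test and limma without litters called none of them either.

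**Figure D2:**
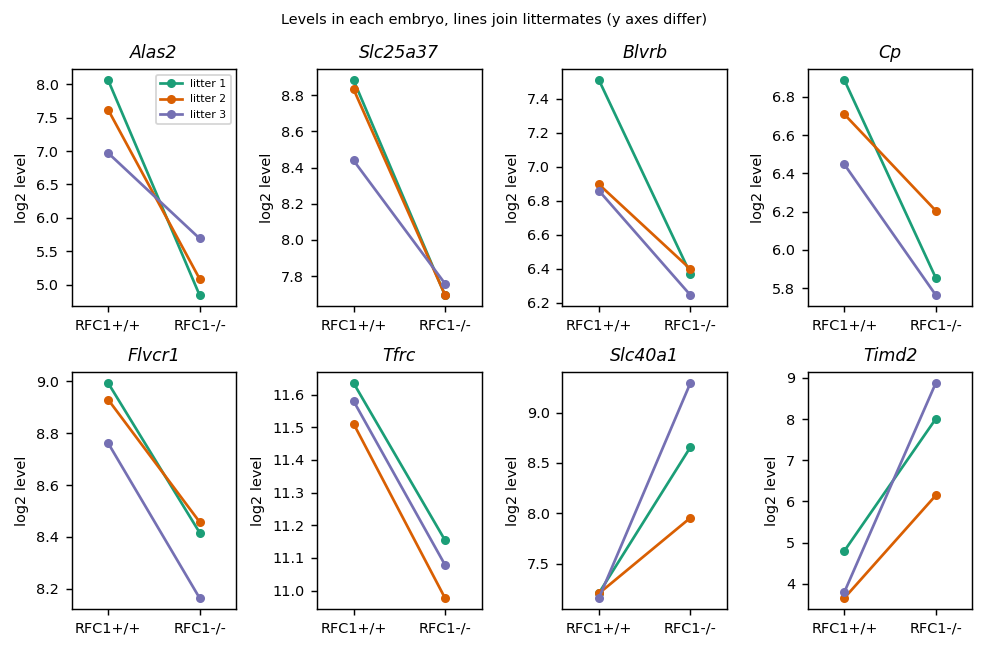
Log2 level in each embryo of the 8 genes that passed; each line joins the RFC1+/+ and the RFC1-/- embryo of 1 litter. Lines fall in Alas2, Slc25a37, Tfrc, Blvrb, Flvcr1 and Cp and rise in Slc40a1 and Timd2 in all 3 litters.

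Slc25a37 (mitoferrin 1), the carrier that takes iron into the mitochondria of red cell precursors, fell by 1.00 on the log2 scale, a 2.00-fold difference (SE 0.13, adjusted p = 0.0113 from limma). It measured 8.88, 8.83 and 8.44 in RFC1+/+ embryos and 7.70, 7.70 and 7.76 in RFC1-/- embryos. The 3 RFC1-/- embryos thus lay within a narrow band that the RFC1+/+ embryos did not reach. Slc25a38, the mitochondrial carrier that brings in glycine for the first step, differed by -0.16, and Abcb6, a porphyrin transporter, by -0.09, and neither passed.

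In the uptake of iron bound to transferrin, Tfrc, the receptor that red cell precursors carry in the largest amounts, was the gene that passed. Tfrc measured 11.64, 11.51 and 11.58 in RFC1+/+ embryos and 11.15, 10.98 and 11.08 in RFC1-/- embryos. The difference was nearly the same in each litter, at -0.48, -0.53 and -0.50, with a mean of -0.51 (SE 0.10, adjusted p = 0.0331), or 1.42-fold. All 6 probe sets of Tfrc had a mean difference below 0, among them the array's control probe sets for the 5′ end, the middle and the 3′ end of the transcript, at -0.40, -0.37 and -0.36. The control probe sets for the 5′ end and the middle had mean levels of only 3.56 and 3.71, near the bottom of the scale. Their differences were largest in litter 1, at -0.74 and -0.68. Without litter 1 or litter 2 the Tfrc call was lost, at an adjusted p of 0.188 and 0.113, and it was lost with the mean of its probe sets (0.0695). Tfr2, the receptor that senses iron-loaded transferrin, differed by -0.03, and its partner Hfe by -0.11. Slc11a2, which moves iron out of the endosome, differed by -0.08. Steap3, the endosomal ferrireductase, was lower in 3 of 3 litters by 0.16 to 0.27, but at levels between 4.12 and 4.49, near the bottom of the scale, and its mean of -0.20 did not pass.

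Ferritin stores iron as a shell of heavy and light chains, and in the mouse Timd2 takes up heavy chain ferritin at the cell surface. Timd2 rose most of the 32 genes, from 4.80, 3.66 and 3.80 in RFC1+/+ embryos to 8.01, 6.15 and 8.88 in RFC1-/- embryos. All RFC1-/- embryos lay above all RFC1+/+ embryos, and the litters differed widely, with rises of 3.21, 2.49 and 5.07. The mean rise was 3.59 (SE 0.43, adjusted p = 0.00940 from limma), or 12.0-fold. The RFC1+/+ values of litters 2 and 3 lie near those of a transcript that is absent, since the Y-linked gene Eif2s3y read 2.86 and 3.24 in the embryos with high Xist, so the fold is uncertain. The second Timd2 probe set differed by 1.10, 0.14 and 1.92, or 2.08-fold on average, and did not pass (adjusted p = 0.128). On these arrays the call for Timd2 rests on a probe set whose suffix marks probes that can match several transcripts. The paper also reports a significant rise of Timd2 by quantitative RT-PCR, another measure of RNA. Fth1, the ferritin heavy chain itself, lay between 12.34 and 12.76 in all 6 embryos and differed by 0.15 (95% interval -0.09 to 0.39), which did not pass.

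Iron leaves the cell through Slc40a1, which the peptide hormone hepcidin (Hamp) removes from the surface and which works with the ferroxidases Heph and Cp. Slc40a1 measured 7.21, 7.21 and 7.16 in RFC1+/+ embryos, a spread of 0.03 (SD), and 8.66, 7.96 and 9.29 in RFC1-/- embryos. It rose in each litter, by 1.45, 0.75 and 2.13, with a mean of 1.44 (SE 0.24, adjusted p = 0.0216), or 2.72-fold. Its second probe set was 2.24-fold higher with an adjusted p of 0.0849, and without litter 1 the call was lost at 0.0502. Heph, the ferroxidase of cell membranes, was higher by 0.67 and 0.45 in litters 1 and 2 and lower by 0.07 in litter 3, and its mean of 0.35 did not pass (adjusted p = 0.286). Hamp was dim in all embryos, between 4.84 and 5.33, and differed by -0.09.

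Cp, the ferroxidase of plasma, moved against Slc40a1. It measured 6.89, 6.71 and 6.45 in RFC1+/+ and 5.85, 6.20 and 5.76 in RFC1-/- embryos, and the groups did not overlap. The mean difference was -0.74 (SE 0.13, adjusted p = 0.0251 from limma), or 1.67-fold. Of the 8 probe sets of Cp this brightest one was the only one that passed. All 8 had a mean below 0, but the smallest differences were -0.02 and -0.03 (SE 0.11 for each). Those probe sets were dim, with mean levels of 4.38 and 3.33, and neither was lower in every litter. The call was lost with the mean of the probe sets (adjusted p = 0.105), without litter 1 (0.136) and without probe sets of shared suffix (0.0735).

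In heme breakdown and export the early enzymes did not pass while a late enzyme and an exporter fell. Hmox1, the inducible heme oxygenase, differed by 0.20 and Hmox2, the constitutive one, by 0.11. Blvra, the main biliverdin reductase of adult tissue, differed by -0.09. Blvrb, which is abundant in red cells and also reduces flavins, measured 7.51, 6.90 and 6.86 in RFC1+/+ and 6.37, 6.40 and 6.25 in RFC1-/- embryos, with no overlap. Its mean difference was -0.75 (SE 0.14, adjusted p = 0.0336 from limma), or 1.68-fold, and the call was lost without litter 1 (0.158) and with the 1.5-fold variation filter (0.132).

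Flvcr1, which exports heme and protects red cell precursors from its excess, measured 8.99, 8.93 and 8.76 in RFC1+/+ and 8.42, 8.46 and 8.16 in RFC1-/- embryos. All RFC1-/- embryos lay below all RFC1+/+ embryos, with a mean difference of -0.55 (SE 0.10, adjusted p = 0.0279 from limma), or 1.46-fold. The second, dimmer Flvcr1 probe set went the other way, by 0.25, 0.16 and 0.16, and did not pass (adjusted p = 0.430). The mean of both probe sets no longer passed (-0.18, adjusted p = 0.318), nor did Flvcr1 without litter 1 (0.177) or litter 2 (0.0673). Abcg2, a transporter that also carries porphyrins, was higher by 0.24, 0.12 and 0.66 and did not pass (adjusted p = 0.223).

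None of the iron sensors or makers of iron-sulfur clusters passed with limma, and none did so without adjustment. Aco1 and Ireb2, the proteins that bind iron-responsive elements when iron is scarce, differed by 0.07 and -0.05. Glrx5, which hands over iron-sulfur clusters and is needed for heme synthesis in red cell precursors, differed by -0.02, and the scaffold Iscu by -0.23. Of the 24 genes that did not pass, all 24 had a 95% interval within 1 log2 unit of 0 on either side, and 17 within 0.5. The 7 with wider intervals were Alad, Uros, Urod, Fech, Heph, Abcg2 and Iscu, so that a difference of 0.5 lies within what 3 litters leave possible for each of these.

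**Figure D3:**
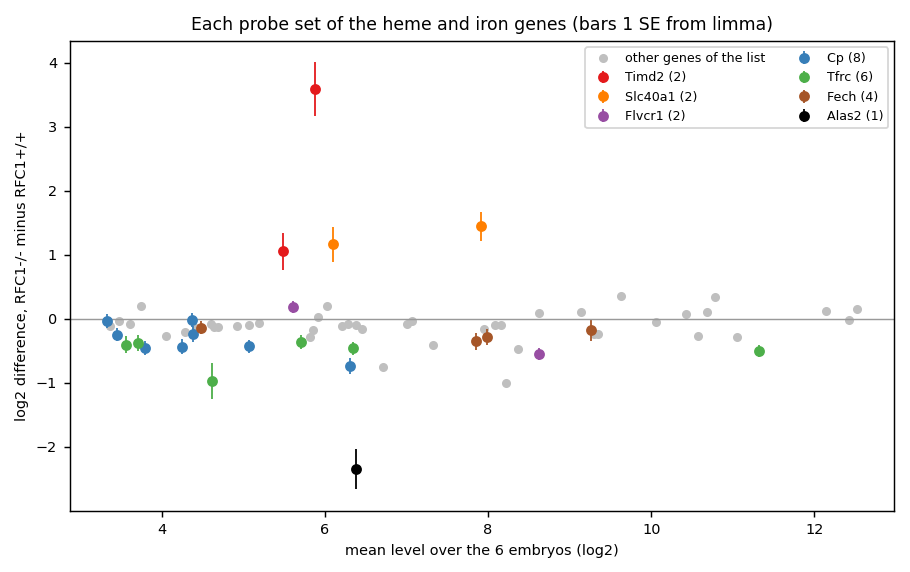
Log2 difference, RFC1-/- minus RFC1+/+, of each of the 69 probe sets against its mean log2 level over 6 arrays, with 1 SE from limma for those of the coloured genes. The probe sets of Tfrc and Cp lie below 0, some of those of Cp close to it. Those of Timd2 and Slc40a1 lie above 0, and those of Flvcr1 lie on either side of 0.

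When each of the 69 probe sets was tested by itself, 6 passed as lower and 2 as higher, where 2.75% of all 45101 probe sets passed. The probe sets that passed were the brightest of each of the 8 genes. Since no gene had more than its brightest probe set pass, none could have passing probe sets in opposite directions. Regardless of passing, the probe sets of Flvcr1 differed by -0.55 and 0.19.

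The genes were then split into a short erythroid class and all others, called general. Some of the general genes, such as Blvrb, Flvcr1 and Glrx5, also serve red cells or their precursors. The erythroid genes were Alas2, Slc25a37, Slc25a38, Tfrc, Tfr2 and Steap3, and 3 of these 6 were lower, 0 higher and 3 did not pass. Of the 26 general genes 3 (Blvrb, Flvcr1 and Cp) were lower, 2 were higher and 21 did not pass. Over all genes 1.65% passed as lower and 3.67% as higher. The median difference of the erythroid genes was -0.35, and by litter -0.38, -0.40 and -0.50. That of the general genes was -0.09, and by litter -0.16, -0.05 and 0.02. The erythroid median lay 0.26 below the general one when each gene was averaged over the litters first. Within the litters the difference was -0.22, -0.35 and -0.52 (SD 0.15), so that it lay below in 3 of 3. Medians within a litter need not average to the median of gene means, here or in either class. No test was made because both classes were drawn up with results known. With the shared heme enzymes counted as erythroid the erythroid median was -0.24. The 3 erythroid genes that passed ran from -0.51 to -2.34, and the other 3 from -0.20 to -0.03.

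Many markers of red cells and most of visceral endoderm moved along with these genes. Both marker lists were drawn up with earlier results of these data known, so their shares are not a test. Of 18 measured markers of primitive red cells 10 were lower, or 55.6%, beside 1.65% of all genes. None passed as higher, and the median difference was -0.88. Their mean level lay between 7.19 and 7.68 in RFC1+/+ and between 5.50 and 5.92 in RFC1-/- embryos. Tal1 went the other way, by 0.30, and did not pass. Epor, Sptb and Epb42 differed by -0.16, -0.16 and -0.03 and did not pass. Hbb-bh1, an embryonic beta-like globin, differed by -4.67. The anion exchanger Slc4a1 differed by -5.01, against RFC1-/- levels of 3.64 to 4.12 near the bottom of the scale. The probe set used for the adult globin Hba-a1 read between 3.60 and 3.77 in all embryos, also near the bottom. Whether it reports that gene was not tested, and probe sets that name several genes were not used. Alas2 fell most in litter 1 and least in litter 3, as did Slc25a37 and 5 of the 10 markers that fell (Slc4a1, Hemgn, Klf1, Ermap and Gata1). The globins Hbb-bh1, Hba-x and Hbb-y fell most in litter 1 but least in litter 2, and Rhd and Trim10 fell most in litter 2. Blvrb and Cp had the order of the globins. Flvcr1 fell most in litter 3 and least in litter 2, and Tfrc fell by nearly the same in each litter. In these whole embryos fewer red cells and less RNA of a gene per red cell cannot be told apart.

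Of 21 measured markers of visceral endoderm 20 were higher, or 95.2%, beside 3.67% of all genes, and 0 lower, the exception being Alb at -0.07. Their median difference was 3.53, and 2.82, 2.83 and 4.65 by litter. Their mean level lay between 6.47 and 7.47 in RFC1+/+ and between 9.06 and 10.7 in RFC1-/- embryos. This list was drawn up with results of these data known, so a high share could be foreseen. From these same arrays the paper reports Apoa1, Cubn, Apom, Ttr, Rbp4 and Dab2 as higher, and Timd2 too. Timd2 and Slc40a1 rose most in litter 3 and least in litter 2, which is the order of 9 of the 20 markers that rose, among them Fgg, Apom, Amn, Hnf4a and Dab2. Another 8, such as Afp, Ttr and Cubn, also rose most in litter 3 but least in litter 1, and Lrp2, Foxa1 and Sox17 rose most in litter 1. According to the methods the membranes outside the embryo were taken off for genotyping, and how much visceral endoderm each sample held was not measured. The part of that tissue in the rises of Timd2 and Slc40a1 was not tested.

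**Figure D4:**
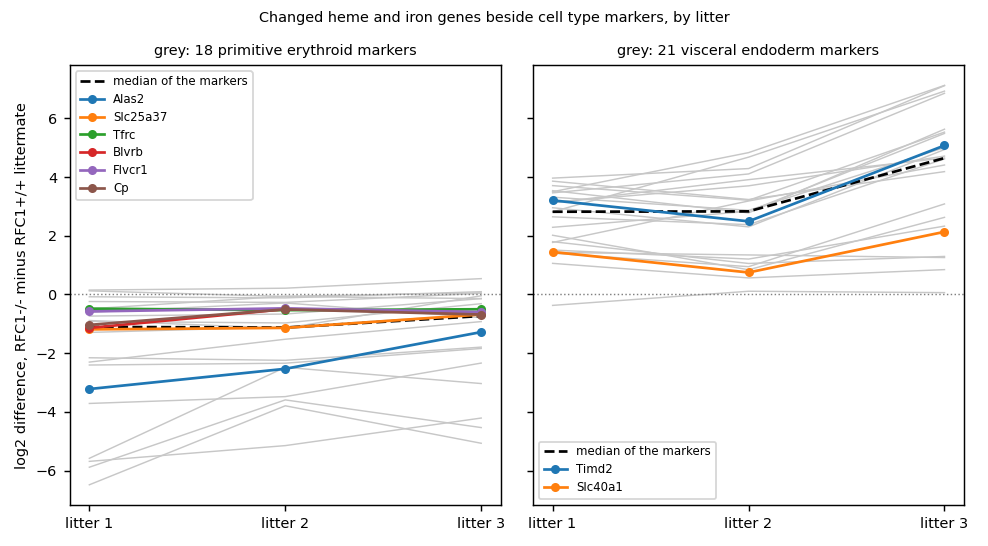
Log2 difference, RFC1-/- minus RFC1+/+, in each litter, of the 6 genes that fell beside 18 primitive erythroid markers (left) and of the 2 genes that rose beside 21 visceral endoderm markers (right). Grey lines are single markers and the dashed line is their median, and lines join litters, which have no order, so that a gene can be followed. Alas2 lies below the marker median in every litter, and Timd2 lies near the median of the endoderm markers.

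Markers of other cells were counted in the same way, beside the 5.32% of all genes that passed. Of 12 macrophage and white cell markers Mrc1 was higher and Coro1a lower, which is 16.7%. With limma 0 of 7 hepatocyte markers passed, and 1 was higher without adjustment, as were 1890 of all 18194 genes. Of 6 markers of trophoblast and decidua Plac1 and Cryab were higher, which is 33.3%. The decidual prolactin Prl8a2 read 11.17 in the RFC1+/+ embryo of litter 1 and between 4.49 and 7.84 in the other 5, and the part of decidua in these values was not tested. Without litter 1, a fit on 4 arrays, the differences of Tfrc (-0.52), Blvrb (-0.56), Flvcr1 (-0.53), Cp (-0.59) and Slc40a1 (1.44) kept their direction and no longer passed. Alas2, Slc25a37 and Timd2 passed without each litter in turn.

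Measured genes of heme and iron outside the list passed at a share of 5.56%, near the 5.32% of all genes. Trf (transferrin) has no value here and is not in that share, though the paper reports it as higher in RFC1-/- embryos. Of 41 further genes 36 were measured, 2 were higher, 0 were lower with limma or the random-variance paired test, and 34 did not pass. Without adjustment 4 were lower and 6 higher, beside 1464 and 1890 of all 18194 genes. Hpx, hemopexin, the plasma protein that binds free heme, measured 4.58, 4.69 and 4.82 in RFC1+/+ and 5.26, 5.34 and 5.22 in RFC1-/- embryos, higher by 0.58 (SE 0.11, adjusted p = 0.0305). Bmp6, the signal that raises hepcidin in the adult liver, measured 5.90, 5.77 and 5.81 against 6.26, 6.53 and 6.68, higher by 0.67 (SE 0.13, adjusted p = 0.0335). Hpx is dim, and it no longer passed without litter 1 or 2 (0.197 and 0.104), nor Bmp6 without litter 2 or 3 (0.105 and 0.0509). Flvcr2, the relative of Flvcr1, was higher by 1.28, 0.39 and 2.04, with the largest difference in litter 3 as in Timd2 and Slc40a1, but did not pass (1.24, adjusted p = 0.0543). The median of the 36 genes was -0.00.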

How the data were processed

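RNA of 6 single whole embryos was hybridized to Affymetrix mouse arrays, 3 RFC1-/- and 3 RFC1+/+ as littermate pairs, the pairing being given by the replicate numbers of the labels and by the methods. Deviations of same-numbered embryos correlated at 0.01, -0.03 and -0.20. The authors deposited log2 values made with RMA (background correction, quantile normalization and median polish), with the software version not given in the sources used here. The table held 45101 probe sets, and 0 columns of values were unused. The platform annotation gave 34958 probe sets 1 symbol, 932 several and 9211 none, and the brightest probe set with a single symbol stood for each of 18194 genes. Medians of single arrays ran from 5.43 to 5.49, and pairs of arrays correlated at 0.984 to 0.996.

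The difference between genotypes was fitted with limma 3.58.1 (R 4.3.3), litter as a block, with empirical Bayes moderation and Benjamini-Hochberg adjustment over all genes, or over all probe sets, at 0.05. The fit was tested on simulated data. Intervals are limma's at 95%. The methods' random-variance paired test was an alternative, beside no block, an intensity trend in the variance, a 1.5-fold variation filter, dim genes left out, a second quantile normalization, median centring, averaged probe sets of each gene, probe sets with _s, _x and _a suffixes left out, and each litter left out. Tables, plots and motif searches used Python 3.11.15 with pandas 2.3.3, numpy 2.4.6 and matplotlib 3.10.9. Every measured gene of the list was named, with levels in all embryos for those that passed and for the heme enzymes, and of the other heme and iron genes those that passed. Flvcr2, Tal1, Epor, Sptb, Epb42 and the markers named by litter were picked after their values were seen. The list, the classes and the marker lists were chosen with earlier results of these data known.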

Additional observations from a re-analysis of the deposited data

How the results depend on the processing

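With no replicate block, in place of the pairing by litter, 6 genes of the list were lower and 2 higher, the same counts as with it. Of the genes that passed, Alas2 and Slc25a37 kept their call under each of the 11 alternatives that measured them, but each has 1 probe set, with the _a suffix, and had no value when suffixed probe sets were left out. The number of lower genes was 3 with the 1.5-fold variation filter, which left 8 of the 32 genes, 3 with averaged probe sets of each gene and 3 without suffixed probe sets, which left 27, and it was 2 to 7 with a litter left out. The number of higher genes was 1 without suffixed probe sets, where Timd2 differed by 1.06 (adjusted p = 0.0877), and 1 to 3 with a litter left out. Without litter 3 Uros (-0.62, adjusted p = 0.0187) and Heph (0.56, adjusted p = 0.0352) also passed. Among the other heme and iron genes 1 was higher with the filter, 1 with dim genes left out and 1 with any of the 3 litters left out, and 0 to 1 were lower without a litter. The erythroid median of -0.35 became -1.00 with the filter, -0.51 with dim genes left out, -0.20 without suffixed probe sets and -0.24 in the wider class. The general median became 0.34 with the filter, and the difference between the medians -1.34, -0.42 with dim genes left out and -0.11 without suffixed probe sets. The filter, the suffix rule and the omission of dim genes leave fewer genes, and the cause of the other shifts was not tested. Signal near the bottom of the scale limits Steap3, Hamp, Hfe and Hpx.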
